A study of Homo sapiens with 9 samples.

Results

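MICAL3 encodes a flavoprotein monooxygenase that oxidises actin. The data described here are the QKI-5 peaks on its transcript, each a stretch of RNA at which reads recovered with the RNA-binding protein QKI-5 were piled above the background. The gene, identifier ENSG00000243156, spans chr22:18270415-18507327 on the minus strand of hg19. A peak was taken as a member when it lay on that strand and its centre fell in the span, which gave 129 of the 24037 peaks in the whole list. The gene was selected on the measured heights, because several of its peaks are among the tallest 1% of the list, so its peak heights and the number of tall peaks are given as a description with no test.

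The list came from HITS-CLIP, in which cells are irradiated with ultraviolet light so that RNA and bound protein are joined, and RNA fragments that an antibody brings down with the protein are then sequenced. HMLE is a human mammary epithelial line, and the cells used, mesHMLE, are its mesenchymal form, obtained by long exposure to TGF-β1, cultured afterwards without it and irradiated at 600 mJ/cm2. The labels give 2.5 ng/ml TGF-β1 for at least 14 days as the inducing treatment. There were 7 libraries from immunoprecipitation with an antibody to QKI-5, of which 3 were from the gel region of the monomer and 4 from that of the dimer, with 1 of the dimer libraries made with SuperScriptIV in place of AffinityScript, and 2 libraries of size-matched input. They are technical replicates of a single cell line, and they were pooled before peaks were called, so no peak has a spread between replicates. The list does not give the depth of the libraries. The height of a peak is a whole-number signal that the authors gave for the pooled libraries. It is not scaled to the abundance of the transcript, so a height on MICAL3 cannot be separated into RNA level and binding.

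MICAL proteins use a flavin to oxidise methionines of actin, which takes filaments apart, and methionine sulfoxide reductases of the MsrB type reverse the reaction. MICAL3 also joins Rab8 and the scaffold ELKS at vesicles that are docking at the cell surface, and it takes part in cell division with centralspindlin. QKI, of the STAR family, binds RNA at ACUAAC and at a shorter half-site, UAAC, and regulates splicing from introns beside alternative exons. In DNA letters these are ACTAAC and TAAC, and both were sought on the strand of the transcript, where every ACTAAC also holds a TAAC.

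3 of the tallest MICAL3 peaks are printed first, 5′ to 3′ in the direction of the transcript and with TAAC in capitals. They lie in intron 16 of the canonical transcript MICAL3-206, whose 32 exons are numbered from the 5′ end, and they show the repeat under the tallest signal, its upstream edge and the single one of the 6 tallest peaks that lay outside it.
chr22:18359682-18359898, height 693: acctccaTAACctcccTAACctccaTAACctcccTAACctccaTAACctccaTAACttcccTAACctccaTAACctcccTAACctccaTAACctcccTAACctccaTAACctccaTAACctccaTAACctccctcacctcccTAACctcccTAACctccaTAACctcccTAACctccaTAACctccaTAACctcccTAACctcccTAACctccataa
chr22:18360278-18360402, height 295: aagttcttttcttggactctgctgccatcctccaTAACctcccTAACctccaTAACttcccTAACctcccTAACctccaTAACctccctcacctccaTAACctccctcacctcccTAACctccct
chr22:18358613-18358755, height 300: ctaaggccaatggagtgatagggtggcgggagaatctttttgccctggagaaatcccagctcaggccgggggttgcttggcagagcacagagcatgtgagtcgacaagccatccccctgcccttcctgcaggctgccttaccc
The runs at heights 693 and 295 repeat a unit of 9 nt in which TAAC recurs, whereas the run at height 300 holds no TAAC.

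The 5 MICAL3 peaks that held the full motif ACTAAC, here in capitals, looked different from these. 3 were in intron 29, 1 in intron 16 and 1 in intron 1.
chr22:18275894-18275985, intron 29, height 105: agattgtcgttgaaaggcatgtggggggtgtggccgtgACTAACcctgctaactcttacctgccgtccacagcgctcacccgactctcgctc
chr22:18286474-18286588, intron 29, height 56: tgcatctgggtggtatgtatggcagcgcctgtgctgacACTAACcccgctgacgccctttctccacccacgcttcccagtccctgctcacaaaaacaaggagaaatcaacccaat
chr22:18442442-18442517, intron 1, height 32: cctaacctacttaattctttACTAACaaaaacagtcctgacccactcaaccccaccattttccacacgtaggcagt
chr22:18362414-18362525, intron 16, height 30: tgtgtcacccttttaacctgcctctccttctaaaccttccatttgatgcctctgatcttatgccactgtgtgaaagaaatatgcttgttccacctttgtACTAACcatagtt
chr22:18275438-18275588, intron 29, height 28: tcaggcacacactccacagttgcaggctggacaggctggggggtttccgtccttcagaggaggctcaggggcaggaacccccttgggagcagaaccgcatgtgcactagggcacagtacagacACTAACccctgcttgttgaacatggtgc
None of these 5 peaks was among the tallest 1%, and the tallest 6 peaks of the gene held no ACTAAC.

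The 129 peaks had a median height of 33, with quartiles at 23 and 73, against a median of 23 with quartiles at 18 and 33 over the whole list. Their width had a median of 76 nt, against 61 nt. A total of 98 of the 129 stood at or above the median height of the list, ties included, as did 12845 of all 24037 peaks. No peak lay on the opposite strand within the span.

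6 MICAL3 peaks were among the tallest 1% of the list, which held 243 peaks or 1.01% with ties at the cut kept. This number was used to choose the gene and nothing is read from it. Their heights were 693, 375, 324, 300, 295 and 265, and the cut was at 229. The tallest MICAL3 peak just outside it had a height of 224 and was also in intron 16, at chr22:18359355-18359467.

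The peaks were unevenly spread over the transcript. Intron 16, at chr22:18354790-18368643, is 13854 nt long and makes up 5.85% of the span, and it held 80 of the 129 peaks, or 62.0%. Intron 29 held 16 peaks, intron 27 held 10, intron 1 held 8 and intron 22 held 7. Introns 15, 17 and 21 held 1 each and intron 19 held 2. No peak was centred in the remaining 22 of the 31 introns, although a peak centred in exon 32 covered 47 nt of intron 31. Peaks covered 57.1% of intron 16 and 1.89% of the length of all other introns. Intron 1, the longest, is 117394 nt and had 0.474% of its length in peaks.

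**Figure D1:**
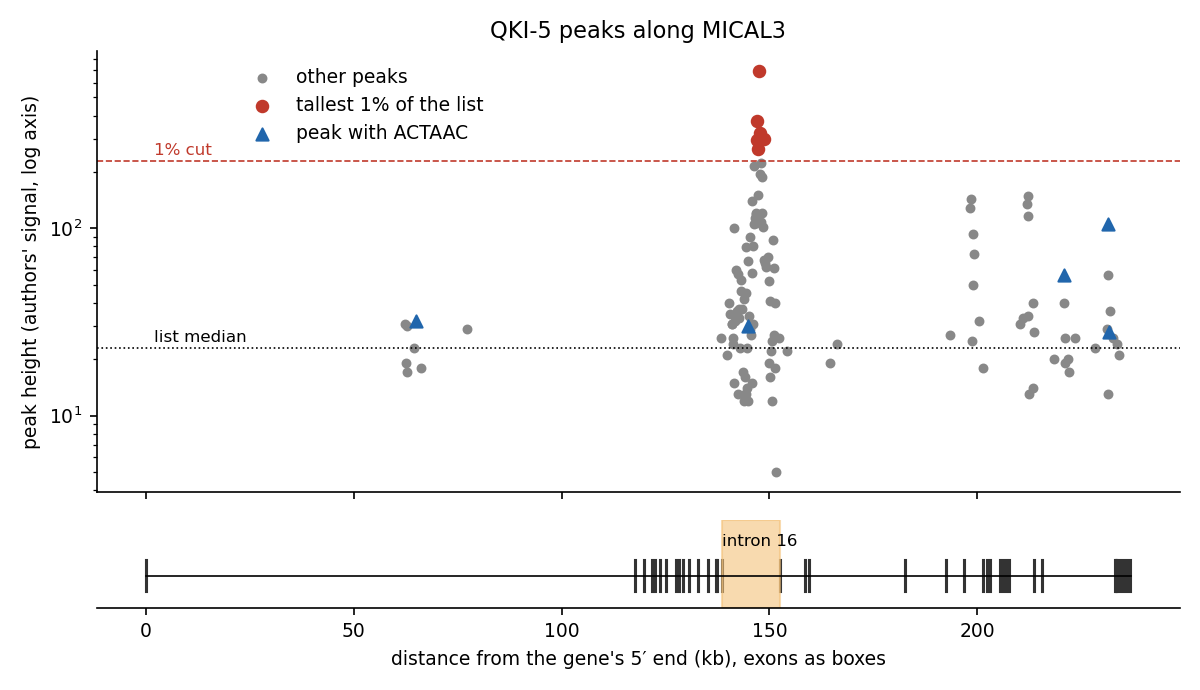
Height of each of the 129 MICAL3 peaks (log axis, the authors' signal) against the distance of its centre from the 5′ end of the gene in kb, with exons drawn as boxes below and intron 16 shaded. The 6 peaks above the dashed line at 229 all sit in intron 16, and the 5 peaks with ACTAAC (triangles) lie between heights 28 and 105.

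Within intron 16 the peaks formed an almost continuous run. 79 of the 80 lay between chr22:18355795 and chr22:18367575, a stretch of 11781 nt that begins 1068 nt after exon 16 and stops 1005 nt before exon 17, and peaks covered 66.6% of it. The gap between neighbouring peaks of the intron had a median of 5 nt, and 45 of the 79 gaps were of 10 nt or less. With gaps this small, neighbouring peaks cannot be counted as separate binding sites. The 80 peaks had a median height of 40.5, against 28 for the 49 peaks elsewhere in the gene, where the tallest stood at 149.

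The tallest peaks lay in the distal part of the intron. In the window from 2000 to 4000 nt after exon 16 the 13 peaks had a median height of 32, and in the window from 4000 to 6000 nt the 14 peaks had a median of 28. The 17 peaks between 6000 and 8000 nt had a median of 58. The 15 peaks between 8000 and 10000 nt had a median of 194 and included all 6 of the tallest 1%. Beyond that, the 11 peaks between 10000 and 12000 nt had a median of 41.

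5 of those 6 peaks lay on a tandem repeat of the QKI half-site. The repeat, at chr22:18359465-18360368, is 904 nt long and holds 93 copies of TAAC on the strand of the transcript, out of 115 in the whole intron and 496 in the whole gene. It was noticed after the heights had been seen, and was then delimited by sequence as 10 or more TAAC copies starting at most 27 nt apart, which gave this 1 array in the gene. Of the 92 steps from one copy to the next, 85 were of 9 nt, 6 of 18 nt and 1 of 27 nt. The hexamer that ends in TAAC was CCTAAC in 52 copies and CATAAC in 40, and in none was it the full motif. With positions counted from 1 at the 5′ end of the full motif, the former hexamer differs from it by A1C, and the latter by A1C and C2A.

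7 peaks were centred in this array and covered 98.7% of it. From 5′ to 3′ along the transcript their heights were 295, 375, 265, 150, 693, 324 and 194, with 8, 14, 13, 10, 22, 7 and 14 TAAC copies. 5 of these 7 were among the tallest 1% and all stood at 150 or above. The peak with the most copies was also the tallest, but the order did not hold among the others, since the peak with 7 copies was taller than both peaks with 13 and 10 and than 1 of the peaks with 14. The peak with 22 copies was also the widest of the 7, at 217 nt, and that with 7 copies the narrowest, at 69 nt. Copy number was not separated from width. The 73 peaks of intron 16 centred outside the array had a median height of 37 and reached 300.

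Reads from a repeat cannot always be placed. Only 4.55% to 55.8% of the 30-nt words in the 7 array peaks occurred once in the genome, whereas the peak of height 300 and the peak of height 224 beside the array consisted of such words alone. Over the gene, 116 of 128 peaks long enough to hold such a word were unique throughout, 90.6%, against 79.6% of 23314 nuclear peaks. Besides the 7 array peaks, 5 peaks were not unique throughout, all in intron 16 and with heights up to 215. The number of repeat copies in these cells and the share of reads lost to low mapping quality were not measured, and the part of the repeat in the heights was not tested.

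**Figure D2:**
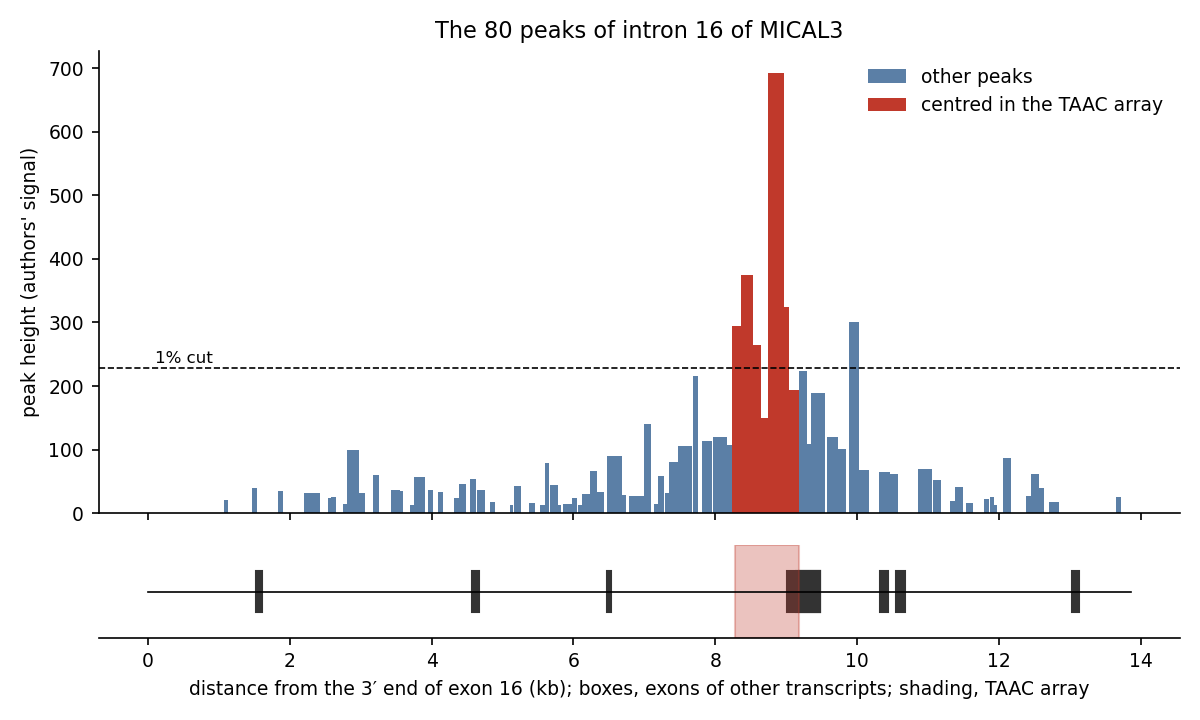
Height of the 80 peaks of intron 16 (the authors' signal, linear axis from 0, bar width equal to peak width) against distance from the 3′ end of exon 16 in kb, with exons of other transcripts as boxes and the TAAC array shaded below. The 7 peaks centred in the array (red) stand between 150 and 693, and the peak at 300 lies downstream of it.

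Most peaks of the intron lacked the half-site, as did most of the list, where 26.0% of 24019 nuclear peaks held TAAC. 64 of the 80 held no TAAC and had a median height of 38.5, ranging from 5 to 300. The 9 with 1 to 6 copies had a median of 30 and ranged from 13 to 189, so their heights lay within the range of those without a copy. The 7 with 7 or more copies, the array peaks, had a median of 295. Elsewhere in the gene the 10 peaks with TAAC had a median of 48 and the 39 without it had a median of 26, with ranges of 18 to 135 and 13 to 149 that overlapped. In the whole list, 26 of 24019 nuclear peaks (0.108%) held 7 or more copies, and 7 of the 26 were those of MICAL3.

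**Figure D3:**
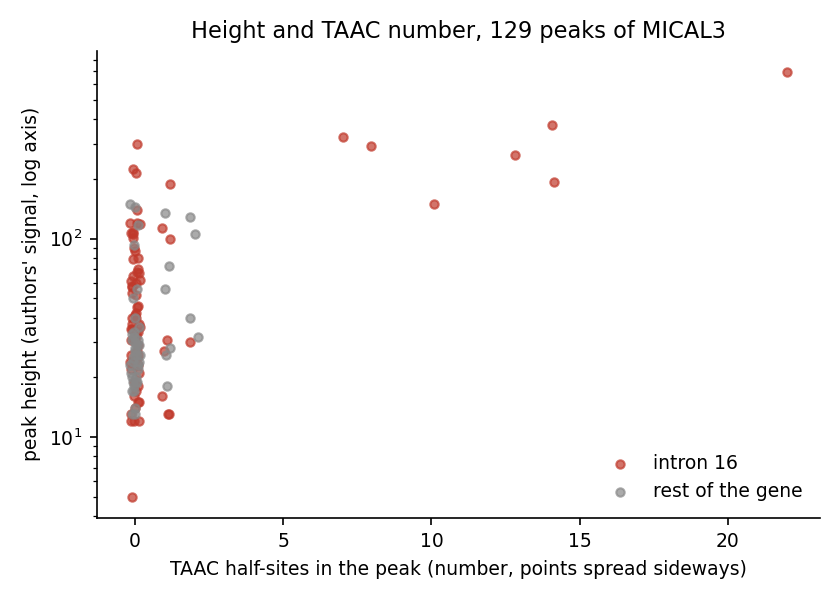
Height of each of the 129 MICAL3 peaks (log axis, the authors' signal) against the number of TAAC copies in it, for intron 16 (red) and the rest of the gene (grey). Peaks without TAAC span 5 to 300, and the 7 peaks with 7 or more copies span 150 to 693. Copy number is not scaled to peak width.

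Intron 16 also holds exons of other annotated transcripts. 9 exons of 6 non-canonical MICAL3 transcripts lie wholly within it, some of them overlapping, and 8 of the 9 were touched by a peak. The exons of MICAL3-208, MICAL3-211 and MICAL3-209 that end at chr22:18359174 and start at 18359469, 18359505 and 18359638 reach into the array, and were overlapped by peaks of heights 108 to 224, and for MICAL3-209 also by the peak at 324. Of the 4 exons of MICAL3-219, that at chr22:18355513-18355620 met no peak, and the other 3 met peaks of heights 37 to 90. The exon at chr22:18367041-18367124, shared by MICAL3-204 and MICAL3-207, met 1 peak of height 40. Only 6 of the 80 peaks had their centre in any of these exons. Use of these exons in mesHMLE cells was not measured in these data.

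On the canonical transcript, nearly all MICAL3 peaks lay in introns. The centre lay in an intron for 126 of 129 peaks, 97.7% with a 95% Wilson interval of 93.4 to 99.2%, which covers counting error only. Over all peaks in canonical protein-coding transcripts the share was 90.3% of 19916. Counting exons of every annotated transcript lowered the MICAL3 share to 89.9%. Only 5 peaks, 3.88% (1.67 to 8.75%), had their centre within 250 nt of an exon, in or outside it, against 18.3% over the same 19916 peaks. This interval and that of the intronic share treat peaks as independent. The closely spaced peaks of intron 16 are not, so the intervals understate the uncertainty. The run of 79 peaks in that intron lies 1068 and 1005 nt from the exons on either side, beyond the 250 nt. Whether the difference from 18.3% holds outside that run was not tested. With exons of every transcript, the number within 250 nt became 38 peaks, or 29.5%. Of the 33 added peaks, 22 lay in intron 16 and 11 elsewhere in the gene, and the share of the whole list was not recomputed in that way.

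3 peaks had their centre in an exon of the canonical transcript. In exon 32, the last, 1 peak at chr22:18273139-18273176 had a height of 21 and lay in the 3′UTR. The other, at chr22:18273623-18273729 with a height of 24, reached 47 nt into intron 31 and so crossed the 3′ splice site, and its summit was in coding sequence.

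The third was on exon 23, at chr22:18305713-18305826, a coding exon of 114 nt or 38 codons. It was included among the peaks to be named because the study lists the skipping of this exon among its events of epithelial-mesenchymal transition. The direction of that change and the response of the exon to QKI-5 knockdown are not given here. Whether the peak bears on use of the exon was not tested. The peak, at chr22:18305773-18305838 with a height of 18, crossed the 3′ splice site too, with 12 nt in intron 22 and 54 nt in the exon, here with the exon bases in capitals.
chr22:18305773-18305838, exon 23, height 18: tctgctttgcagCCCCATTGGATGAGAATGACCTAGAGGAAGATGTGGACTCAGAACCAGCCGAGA
Its summit was the first base of the exon, and it held neither ACTAAC nor TAAC. The list has no header, and summits were read as counted from 0, because 110 of the 24037 equal the start counted from 0 and would otherwise lie outside their peak. Its height was below the median of the list, 23.

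Upstream of exon 23, intron 22 held 7 peaks, and downstream, intron 23 held none. The nearest upstream peak ended 987 nt before the exon and had a height of 32. The other 6 formed a cluster of 1232 nt at chr22:18308036-18309267, with heights of 73, 93, 50, 25, 144 and 129 in order of coordinate. It held 3 copies of TAAC and no ACTAAC. None of the 4 annotated MICAL3 transcripts that run across exon 23 leaves it out.

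A similar cluster stood in intron 27. 5 peaks at chr22:18294898-18295262 had heights of 13, 117, 34, 149 and 135, and the peak at 149 was the tallest outside intron 16. They held 1 copy of TAAC together, and no peak of the intron held ACTAAC.

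In intron 29 the peaks were lower, but 3 of the 16 held ACTAAC. The tallest, at 105, was among a cluster of 6 peaks over 935 nt, at chr22:18275274-18276208, that also included the peak at 28 with the motif. The peak at 56 with the motif was in a cluster of 4 at chr22:18286015-18286588. A lncRNA gene, ENSG00000093100, overlaps the 3′ end of MICAL3 on the same strand, at chr22:18270418-18294263. 21 of the 129 peaks lay in its span and 5 of them in its exons, and reads from the 2 genes cannot be told apart there.

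Over the gene, ACTAAC was found in 5 of 129 peaks, 3.88% (1.67 to 8.75%), against 10.1% of 24019 nuclear peaks. With peaks at most 10 nt apart merged, the MICAL3 share was 8.22% (3.82 to 16.8%), and with 25 nt added on each side of a peak it was 6.98% (3.71 to 12.7%). Both of these intervals include the share of the list as the authors delimited its peaks. That share was not recomputed in those ways, so whether the difference from the list holds under them was not tested. In intron 16 it was 1 of 80, or 1.25% (0.221 to 6.75%). In the rest of the gene it was 4 of 49, or 8.16% (3.22 to 19.2%), an interval that includes the share of the list. The intervals treat peaks as independent, which the closely spaced peaks of intron 16 are not, so that of intron 16 understates the uncertainty. ACTAAT was in 0 of 129 peaks, with an upper bound of 2.89%, against 4.23% of nuclear peaks. TAAC was in 26 of 129 peaks, 20.2% (14.1 to 27.9%), against 26.0% of nuclear peaks. Outside the array it was in 19 of 122 peaks, 15.6% (10.2 to 23%), an interval that lies below the share of the list but also treats peaks as independent.

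ACTAAC in the peaks was also set against neighbouring sequence. Windows of the same length were taken 500 nt to the 5′ side and 500 nt to the 3′ side of each peak, and 3 and 2 of the 129 windows held the motif. 4 peaks had it where the 5′ window lacked it, and 2 windows had it where the peak lacked it, and the exact McNemar test (two-sided) gave p = 0.688. Against the 3′ windows the numbers were 4 and 1, and the exact McNemar test (two-sided) gave p = 0.375. So few pairs differed that the test against the 3′ windows could not pass the threshold of 0.05 whatever their split. The test against the 5′ windows could pass it only with all differing pairs on the same side. Neither test therefore shows whether the motif is more frequent in the peaks, and peaks of 1 transcript are not replicate samples. In addition, 81 of the 5′ windows and 78 of the 3′ windows overlapped another MICAL3 peak, so most windows were not sequence free of peaks.

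The count was also made from the motif. MICAL3 has 18 ACTAAC sites on its own strand, and 6 of them, 33.3% (16.3 to 56.3%), overlapped a peak by at least 1 nt, 5 of them wholly. Peaks covered 5.10% of the span. Over all protein-coding genes with a peak, 4.09% of 63910 such sites overlapped one. MICAL3 has more peaks than most of these genes, and the share was not adjusted for it. Of the 403 TAAC copies outside the array, 26 overlapped a peak.

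The position of the motif in the peak differed between the 5 peaks. In the peaks at heights 105, 56 and 32, ACTAAC began 19, 15 and 19 nt upstream of the summit. In the peaks at heights 30 and 28 it began 72 and 75 nt downstream of the summit, close to the 3′ end of the peak. 2 of the 5, those at 105 and 32, held another TAAC within 20 nt of ACTAAC, as did 527 of 2415 nuclear peaks with ACTAAC.

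Among 20163 protein-coding genes, 4750 or 23.6% had at least 1 peak, with a median of 2. By number MICAL3 was number 3, after NAV2 with 186 and CCBE1 with 141, which were named after their values had been seen. NAV2 spans 770877 nt, more than 3 times the length of MICAL3, and had no peak among the tallest 1%. MICAL3 had 54.5 peaks per 100 kb, which ranked 72nd of the 1268 genes with 5 or more peaks, whose median was 9.65. By number of peaks among the tallest 1%, 2 of the 82 genes with any had as many as MICAL3, namely the coding gene ENSG00000285920 with 7 and ARGLU1 with 6.

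**Figure D4:**
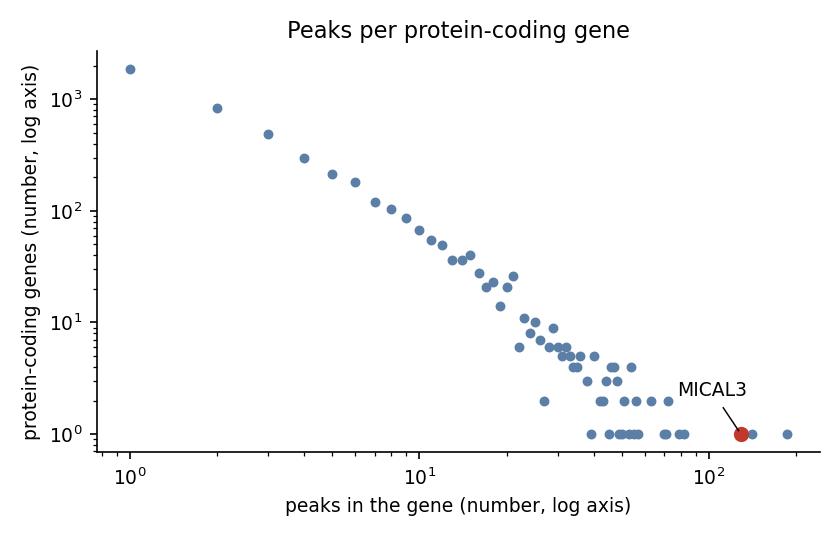
Number of protein-coding genes (log axis) with each number of peaks (log axis), for the 4750 genes with at least 1 peak. MICAL3, with 129 peaks, is marked, and 2 genes lie to its right.

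Intron 16 of MICAL3 stood near the top of all introns as well. It ranked 2nd by number of peaks among 6703 canonical introns with a peak, whose median was 1. Among the 3239 of these that are 10000 nt or longer, it ranked 2nd by share of length in peaks, after intron 1 of CANT1 at 63.8%, and the median was 0.337%. These ranks describe 1 pooled list and were not tested. The gene was selected for its tall peaks, all 6 of which lie in this intron, so the ranks cannot be taken as free of that selection.

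The 3 protein-coding genes most alike in number of peaks, median height and tallest height, by the distance between their log2 values, were KLC1, CANT1 and SMYD3, at distances of 0.887, 1.45 and 1.50. The likeness is over the 1 pooled list. KLC1, which encodes a kinesin light chain, had 72 peaks with a median height of 27.5 and a maximum of 648. Its intron 13 held 42 of them and was 52.5% covered. CANT1, which encodes a calcium-activated nucleotidase, had 71 peaks with a median height of 40 and a maximum of 315, 68 of them in intron 1. SMYD3, which encodes a lysine methyltransferase, had 63 peaks with a median of 26 and a maximum of 338, and its intron with the most, intron 5, was only 0.975% covered.

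Of the other MICAL proteins, MICAL2, also an actin oxidoreductase, had 16 peaks with a median height of 22 and a maximum of 185, and 1 of them held ACTAAC. MICAL1, the founding family member, and MICALL1 and MICALL2, which lack the monooxygenase domain, had no peak. MICAL2 spans 265137 nt, about as much as MICAL3, whereas MICAL1, MICALL1 and MICALL2 span 21907, 37166 and 31006 nt.

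A list of 33 genes covered the vesicle, cell division, semaphorin and actin pathways of the MICAL family, and was not limited to partners of MICAL3. Of these genes, 14 (42.4%) had a peak, against the 23.6% of all protein-coding genes. None had a peak among the tallest 1%, which only 82 protein-coding genes (0.407%) did, so that count does not set these genes apart. Among exocytosis scaffolds, ERC1, which encodes ELKS, had 21 peaks with a maximum height of 54, of which 4 held ACTAAC. PPFIBP1 and PPFIA1, both liprins, had 14 and 6 peaks with maxima of 84 and 44. Of 12 Rab GTPases, 4 had a peak, namely RAB10 with 3, RAB6A and RAB1A with 2 each and RAB8B with 1, at heights of up to 35.

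Among the other listed genes, ACTB, cytoplasmic β-actin, had 1 peak of height 128 that held ACTAAC, and ACTG1 had none. RACGAP1 of centralspindlin had 2 peaks with a maximum of 118, and KIF23 had none. MSRB3, a methionine sulfoxide reductase, had 2 peaks of height up to 18. PLXNA2, a semaphorin receptor, had 3 with a maximum of 35, and DPYSL3, of the collapsin response mediators, had 1 at 26. CTTN, the actin-binding cortactin, and CFL1, the filament-severing cofilin, had 2 and 1 peaks of heights up to 15 and 16. Long genes have more room for peaks, and the counts were not adjusted for length or RNA level.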

How the data were processed

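The authors trimmed reads with cutadapt 1.3, mapped them to hg19 with TopHat2 2.0.10, collapsed duplicates by molecular barcode, removed low-quality alignments, pooled libraries and called peaks per strand with MACS2 2.1.1.20160309 against the input, summits included. The deposited peak height is a signal of the pooled libraries, in whole numbers. Depth and replicate spread are unknown.

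Positions are hg19 with the first base counted as 1. GRCh37 provided the sequence and GENCODE release 44, lifted to the same build, the transcripts. Uniqueness is the share of a peak's 30-nt words found once in that genome, on either strand. Shares have 95% Wilson intervals, and ACTAAC in peaks was compared with windows by the exact McNemar test. Functions were tested on simulated sequence. Python 3.11.15, scipy 1.17.1 and pysam 0.24.0 were used.

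The gene, its peaks and the gene lists were chosen with earlier results of these data known. Named were peaks of the tallest 1%, with ACTAAC, or in or nearest exon 23. The MICAL family and listed pathway genes with a peak were named as well. So were the 3 genes most alike, of those with 5 or more peaks. Up to 5 genes with at least as many peaks in the tallest 1% were also named. Other clusters, and NAV2 and CCBE1, were added after their values were seen.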

Additional observations from a re-analysis of the deposited data

How the results depend on the processing

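Of 25 alternatives over 7 results, 20 left the value within its 95% interval, within 1.5 times the count, or on the same side of the threshold. Merging overlapping or touching peaks joined none of the 129, so wherever it was used it returned the main value. It is counted among the 20 but tested nothing. Merging peaks at most 10 nt apart, an alternative chosen after seeing the data, lowered the number of MICAL3 peaks from 129 to 73. The cut at the tallest 2% took in 11 peaks and that at 5% took in 30. With exons of every transcript, the intronic share was 89.9% and the share within 250 nt of an exon 29.5%. The p-value of the exact McNemar test ranged from 0.219 to 1, above the threshold of 0.05 throughout. In each alternative, all of them against the 5′ windows, so few pairs differed that the test could pass only with every such pair on the same side. This range therefore does not show that the motif is no more frequent in the peaks. No paired analysis was possible because the libraries were pooled before peaks were called and the peak list carries no replicate numbers. No library could be left out for the same reason. The list gives neither depth nor a measure of input at each peak, so a region without a peak is not shown to be unbound.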

Other observations

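The microRNA gene MIR648, within intron 1 of MICAL3 at chr22:18463634-18463727 on the same strand, had its nearest peak 18545 nt away. The opposite strand of MICAL3 held 30 ACTAAC sites, more than the 18 of its own strand, and no peak. One of the peaks of intron 16, at chr22:18355795-18355797, was 3 nt wide with a height of 5. The bases of the MICAL3 peaks were 56.1% G or C, against 51.5% over all nuclear peaks.

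Besides MICAL3, the peaks with 7 or more TAAC copies included 5 on the plus strand at CAPN10 and GPR35, which overlap, with heights of 23 to 95, and 1 at CANT1 with 19 copies and a height of 144. The peak with the most copies in the list, 23, was among those at CAPN10 and GPR35 and had a height of 61.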
